A study of Caenorhabditis elegans with 2 samples.

Results

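LSY-12 peaks at the promoter of exactly 1 gene made up 626 of the 2095 thresholded ChIP-seq peaks (29.9%, exact Clopper-Pearson 95% interval 27.9 to 31.9%) in L3 larvae of *Caenorhabditis elegans*. A peak was counted when its summit lay within 500 bp of the most 5′ annotated start of 1 protein-coding gene and of no other (ce11, which is WBcel235). A further 220 peaks had 2 or more such starts in reach (216 had 2 and 4 had 3), and 1249 had none. The 626 peaks lay at 610 of 19973 protein-coding genes (3.05%), of which 594 had 1 such peak and 16 had 2.

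All animals were of strain OP568, whose genotype is unc-119(tm4063) III; wgIs568, and carried a transgene for LSY-12 with GFP-FLAG at its C terminus. Larvae of mixed sex were collected whole at 43 h after synchronization as starved L1 larvae, and chromatin sheared by sonication was precipitated with an antibody against GFP. There was 1 group with 2 biological replicates, numbered 3 and 4, and no second condition, so no test between groups can be made and all values are descriptions. The labels do not name the promoter or copy number of the transgene. In chromatin of whole larvae, strong binding in few cells and weak binding in many cannot be told apart.

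LSY-12 belongs to the MYST family of histone acetyltransferases, enzymes that place acetyl groups on histone tails and are known from yeast to mammals for their action at promoters of transcribed genes. In *C. elegans* the gene is known for its part in the left-right difference of the ASE taste neurons. Many worm genes are trans-spliced, so an annotated start often marks the splice site of the mature RNA, and transcription then begins further upstream. Worm genes are also often arranged in operons or as divergent pairs. A promoter peak with only 1 start in reach is the simplest case for naming the gene beside it.

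Among the 25 strongest of these peaks, counted by gene name, 3 lay at ribosomal protein genes, 3 at chaperone genes and 2 at genes of cytochrome c oxidase. The others lay at genes of various roles or at genes with only a sequence name, whose roles were not counted. To show the DNA beneath them, the 100 bp around the summit of 6 of the strongest members are printed 5′ to 3′ on the strand of the gene (ce11, from the RefSeq WBcel235 genome). Capitals mark matches, on either strand, to 8 hexamers. They are TTTCAG, which ends many worm introns, TGATAA, the core of many sites for the factor ELT-2 and its relatives, the palindrome CACGTG known as the E-box, GAGAGA, known from promoters of flies, GGGCGG, which Sp1 binds in mammals, TATAAA, the core promoter element, the homopolymer AAAAAA and finally the hexamer CTGCGT. Marked too are 3 hexamers picked after their values were seen, namely CGCGTC, then GCGCCA, and also AACGCG. The window of *tasp-1* was left out because it overlaps annotated untranslated sequence.
rpl-3, chrIII:3867521-3867620, plus strand: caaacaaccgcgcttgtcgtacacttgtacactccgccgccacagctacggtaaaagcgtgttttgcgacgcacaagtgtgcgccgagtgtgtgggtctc
cdc-48.1, chrII:10563525-10563624, minus strand: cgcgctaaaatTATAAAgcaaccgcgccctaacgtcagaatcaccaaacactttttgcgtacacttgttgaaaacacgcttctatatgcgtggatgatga
rpl-35, chrIII:7854641-7854740, plus strand: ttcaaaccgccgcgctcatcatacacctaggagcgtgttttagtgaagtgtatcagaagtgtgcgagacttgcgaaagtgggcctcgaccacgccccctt
hsp-1, chrIV:17278534-17278633, plus strand: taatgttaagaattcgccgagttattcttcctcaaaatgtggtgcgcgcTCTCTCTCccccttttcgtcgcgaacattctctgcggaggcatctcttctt
vig-1, chrII:1320564-1320663, plus strand: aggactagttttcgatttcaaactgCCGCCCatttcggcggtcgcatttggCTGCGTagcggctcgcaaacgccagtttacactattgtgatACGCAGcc
rps-1, chrIII:4475605-4475704, plus strand: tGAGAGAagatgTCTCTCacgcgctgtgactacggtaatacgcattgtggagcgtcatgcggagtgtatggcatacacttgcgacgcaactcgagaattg
The GC content of these windows was 57% at *rpl-3*, 43% at *cdc-48.1*, 54% at *rpl-35*, 48% at *hsp-1*, 53% at *vig-1* and 51% at *rps-1*. None of the 11 hexamers was found in the windows of *rpl-3* and *rpl-35*. The windows of *hsp-1* and *rps-1* held GAGAGA, that of *vig-1* held GGGCGG and CTGCGT, and that of *cdc-48.1* held TATAAA.

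Signal at each peak is given as relative signal, the authors' signal value divided by the median signal of all 30000 candidate regions of the same replicate list. The candidate region of highest signal that overlapped the thresholded peak by at least 1 bp was taken. The peak of highest signal lay at *rpl-3*, which encodes a protein of the large ribosomal subunit (chrIII:3867402-3867771, between genes). Its summit lay at −283 bp from the start (negative is upstream), and its relative signal was 36.5 in replicate 3 and 40.5 in replicate 4, the first rank in both. The next 3 values were close to each other, with 19.9 and 24.2 at *tasp-1* (chrIII:10759097-10759434), a homolog of the protease taspase, 18.2 and 25.7 at *cdc-48.1* (chrII:10563437-10563722), an AAA ATPase that extracts ubiquitylated proteins, and 19.5 and 23.5 at *rpl-35* (chrIII:7854547-7854853), again of the large subunit. The order of these 3 was not resolved, since *cdc-48.1* was the lowest of them in replicate 3 and the highest in replicate 4. The value at *tasp-1* was slightly above that at *rpl-35* in both. The means of *tasp-1*, *cdc-48.1* and *rpl-35* (22 ± 3.08, 22 ± 5.33 and 21.5 ± 2.84, SD, n = 2) differed by less than the SD. Then came *hsp-1*, an Hsp70 chaperone (18.9 and 19.1), *vig-1*, a homolog of a factor bound to the RNA interference machinery of flies (17.3 and 19.9), and *rps-1* of the small ribosomal subunit (16.7 and 19.2).

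A step down were *C47E8.4* (15.2 and 18.8), *cox-5A*, a subunit of cytochrome c oxidase (16 and 18), *iff-2*, a homolog of the translation factor eIF5A (15.1 and 16.5), and *Y22D7AL.10* (15.6 and 15.4). The histone H4 gene *his-37* had 13.3 and 15.6, *serp-1.1* had 13.6 and 15.4, and *R107.5* had 14.6 and 13.4. The other cytochrome c oxidase gene in this range, *cox-5B*, had 12.8 and 15.5. At *tos-1* the value was higher in replicate 3 (15.3) than in replicate 4 (11.7). Genes of the secretory pathway followed, with 11.6 and 13.4 at *sec-61.G*, a subunit of the channel that takes proteins into the endoplasmic reticulum, and 12.2 and 12 at *hsp-3*, a chaperone of the same compartment. The DnaJ cochaperone gene *dnj-13* had 9.85 and 14. At *puf-9*, which encodes an RNA-binding protein of the Pumilio family, the values were 11.4 and 11.6. The last of the 25 strongest were *sqd-1* (10.2 and 11.3), *wip-1*, a WASP-interacting protein (10.2 and 11.7), *Y39E4B.6* (9.72 and 11.2), *lin-9*, a subunit of the DREAM complex of cell cycle gene repression (10.9 and 9.30), and *mog-4*, a helicase of the spliceosome (9.82 and 9.73).

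All 25 of these summits lay upstream, from −443 bp (*rpl-35*) to −38 bp (*hsp-3*), and 23 of them between genes. All 25 peaks overlapped one of the 2095 strongest regions in each replicate, and the value was higher in replicate 4 at 19 of them. The largest difference between the replicates among them was 0.51 on the log2 scale, at *dnj-13*. None had the start of a tRNA, snoRNA, snRNA, miRNA or rRNA gene within 500 bp of the summit. By chromosome, 10 lay on III, 5 on II, 4 on V, 3 on X, 2 on IV and 1 on I. Their deposited regions were narrow, from 187 to 377 bp, whereas 543 of all 626 members (86.7%) had the same width of 410 bp.

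**Figure D1:**
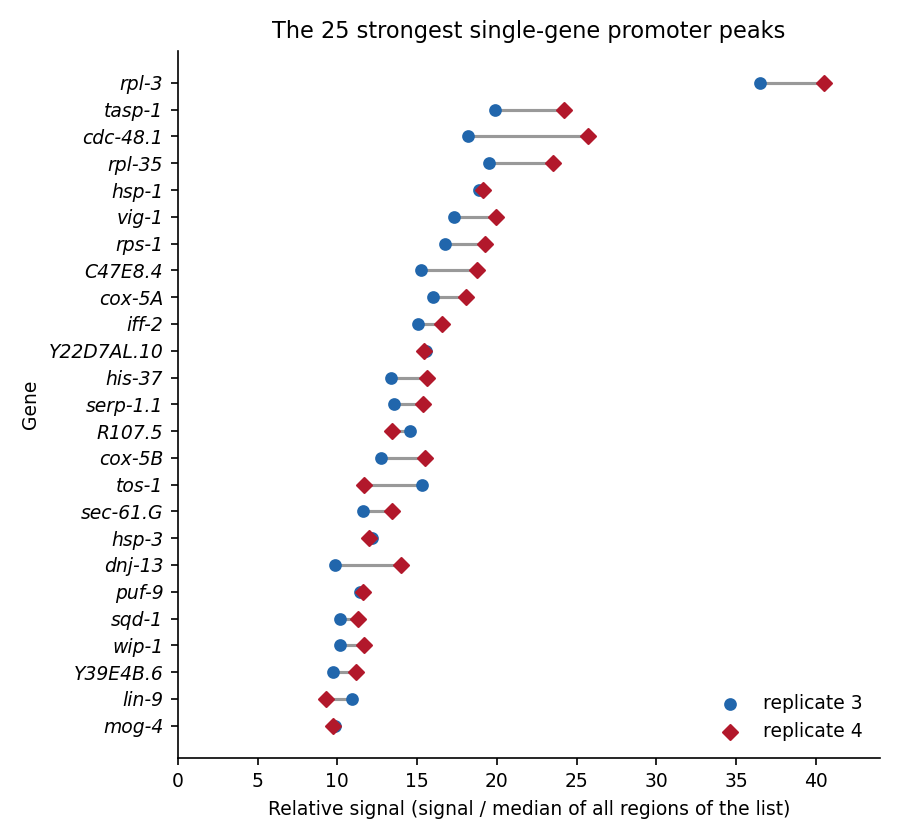
Relative signal (x axis, signal divided by the median of all regions of the replicate list) of the 25 strongest single-gene promoter peaks, 1 gene per line, with circles for replicate 3 and diamonds for replicate 4. *rpl-3* stands apart at 36.5 and 40.5, and the weakest of the 25, *mog-4*, has 9.82 and 9.73.

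Most summits lay upstream of the start, and the crowded stretch was between 100 and 300 bp before it. Of the 626 summits, 505 were upstream (80.7%, 95% interval 77.4 to 83.7%) and 121 at or downstream of the start. The median position was −174.5 bp relative to the start, with quartiles at −291.75 and −35.25 bp. From −500 in steps of 100 bp, the counts up to the start were 54, 86, 130, 135 and 100, and those after it were 43, 27, 19, 16 and 16. A summit in these lists is mostly the middle of its region, since 546 members (87.2%) had it within 1 bp of the midpoint. When the summits of the overlapping replicate regions were used in place of the thresholded ones, the median was −161.5 bp in replicate 3 and −172 bp in replicate 4, with 79.7% and 80.4% upstream. The SD of the replicate medians was 7.42 bp. The summits of both replicates lay a median of 17 bp apart, and within 50 bp at 504 of 624 peaks (80.8%).

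**Figure D2:**
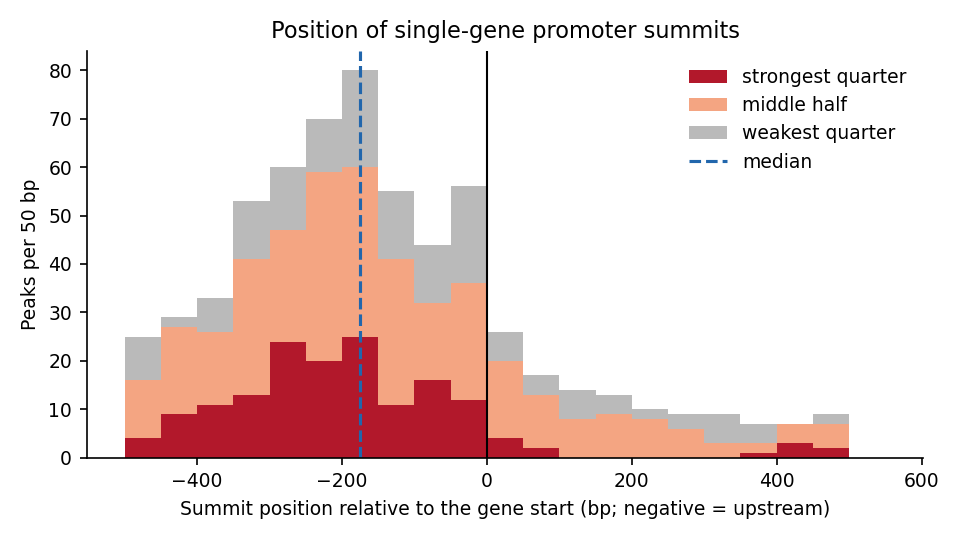
Number of single-gene promoter summits (y axis) per 50 bp of position relative to the gene start (x axis, negative upstream), with colors for the strongest 157 peaks, the 312 in the middle and the weakest 157, and a dashed line at the median. Counts are highest between −300 and −100 bp around the median of −174.5 bp, and 505 of 626 summits lie left of the start.

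Upstream members had the higher signal, and more of them were among the strongest regions of both replicates, a share that depends on signal itself. Their median relative signal was 3.00 in replicate 3 and 3.28 in replicate 4, against 2.76 and 2.61 for the members at or downstream of the start. One of the 2095 strongest regions of both replicates was overlapped by 379 of 505 upstream members (75%, 95% interval 71.0 to 78.8%) and by 73 of 121 others (60.3%, 51 to 69.1%). The fall with position was not even. By 100 bp bin, the median over members of the mean of both replicates was 3.47 between −300 and −200 bp, the highest upstream bin. Downstream it was lowest between 300 and 400 bp (2.23) and highest of all bins between 400 and 500 bp (3.58), each with 16 members. In that last bin lay *twk-5*, a potassium channel gene, whose summit was the farthest downstream at 495 bp, with 6.20 and 6.06 and a snoRNA gene start nearby. It was followed by *ppat-1* (482 bp, 2.51 and 2.98, also with a snoRNA), *B0432.10* (476 bp, 2.70 and 2.26) and *M117.3* (475 bp, 2.36 and 1.65), all in introns. At 465 bp lay 3 more, *Y56A3A.7* (5.95 and 4.72), *F54F2.6* (4.2 and 4.23) and *unc-58*, a gene of the same channel family with a tRNA gene nearby (2.12 and 2.83).

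Peaks near the limit of 500 bp had a wide range of signal on either side. Just inside were *latd-1* at −500 bp (2.39 and 2.06), *Y54G2A.11* at −496 bp (1.55 and 2.93) and *twk-5*. Just outside were *cpz-1* at 502 bp (3.72 and 3.82), *ZK1248.17* at 505 bp (14.1 and 13.5) and *ptrn-1* at −505 bp (2.23 and 2.88). The thresholded peak of *ZK1248.17* had an authors' signal value of only 365.6, below the 378.8 of *twk-5*. Its relative signal is thus that of stronger replicate regions that overlap the peak.

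By annotation, 469 summits lay between genes, 72 in introns, 43 in untranslated exons and 42 in coding exons. All 469 between genes were upstream ones, which the definition largely sets, since 118 of the 121 others lay inside their own gene. Of the 121 others, 46 lay in introns, 40 in coding exons and 35 in untranslated exons. In 46 cases the summit lay inside another gene, as at *C47E8.4* and *dnj-13*, where it fell in an intron. The nearest upstream neighbour pointed the same way as the member gene, with its end within 500 bp of the start, for 163 of 610 genes (26.7%, 95% interval 23.2 to 30.4%), against 18.1% of all protein-coding genes. These shares are not like for like, because the rule leaves out summits with another start in reach, as at close divergent pairs. At any distance, the neighbour pointed the same way for 55.6% of member genes and 54.6% of all genes. The next other protein-coding start, more than 500 bp away by the rule, was a median of 2147.5 bp from the summit.

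Agreement of the replicates at the members was close to that over all peaks. Of the 626, 535 (85.5%) overlapped one of the 2095 strongest regions of replicate 3, 530 (84.7%) one of replicate 4, and 452 (72.2%, 95% interval 68.5 to 75.7%) one of both. Over all 2095 peaks the share in both was 70.6%, and 13 members overlapped a strongest region of neither. Peaks with several starts in reach had a share in both of 81.4% (75.6 to 86.3%), and those with none 68% (65.3 to 70.6%). These peaks were derived from the same replicates, so the shares describe the lists and do not test them. The median relative signal of members was 2.93 in replicate 3 and 3.16 in replicate 4 (3.04 ± 0.165, SD, n = 2). It was 3.28 and 3.46 at peaks with several starts, and 2.76 and 2.81 at peaks with none. The member median lay between those of the other classes in each replicate, and the classes were in the same order in both.

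Across the 624 members with a region in both lists, Spearman's rho of the relative signals was 0.757, against 0.689 across all peaks. It is a description across regions that come from the same 2 libraries. The values were within 1.5-fold of each other at 528 (84.6%) and more than 2-fold apart at 18. Among those more than 2-fold apart, replicate 3 was higher most at *Y48G1C.8* (3.16 and 0.859), *lsy-12* (2.75 and 1.06), *R10E11.6* (4.43 and 1.98), the ubiquitin-like gene *ubl-5* (2.70 and 1.22) and *R02D3.8* (2.69 and 1.25). Replicate 4 was higher most at *C06G4.4* (1.28 and 3.63), *fbxl-1* (2.1 and 5.53), the actin gene *act-4* (1.60 and 4.15), *erd-2.1* (1.15 and 2.71) and *hgo-1* (1.62 and 3.64). Of these 10, *fbxl-1* was the only one in the strongest regions of both replicates. The members without any overlapping region in replicate 4 were *R119.3* (3.16 in replicate 3) and *lsy-2*, a zinc finger gene that acts with *lsy-12* in ASE asymmetry (1.5 in replicate 3).

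**Figure D3:**
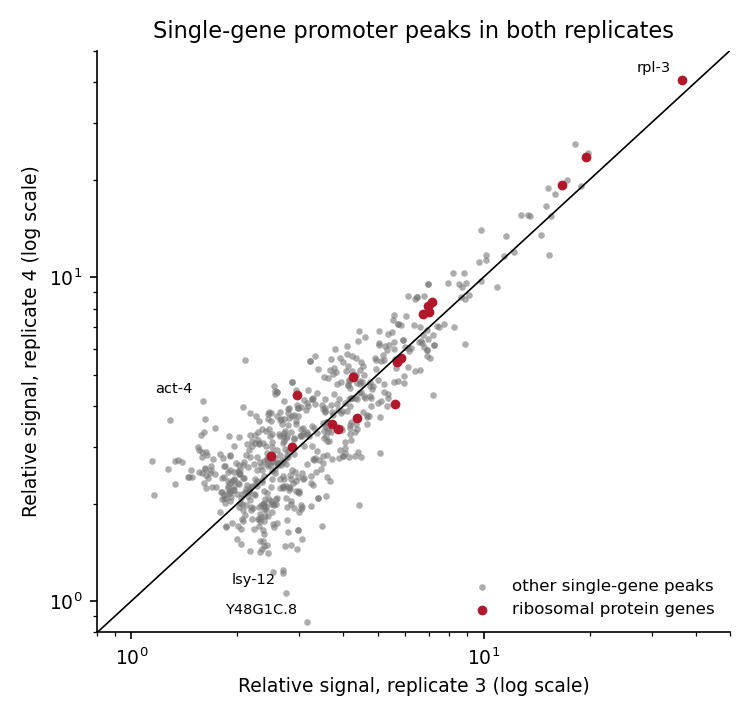
Relative signal in replicate 3 (x axis) and replicate 4 (y axis) of the 624 single-gene promoter peaks with a region in both lists, on log scales, with ribosomal protein genes in red and the line of equal values. *rpl-3* is at the top right with 36.5 and 40.5, while *lsy-12* (2.75 and 1.06) and *Y48G1C.8* (3.16 and 0.859) lie far below the line and *act-4* (1.60 and 4.15) above it.

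When the members were ranked by the authors' signal value (122.5 to 2402, median 184.0) and divided into 4 groups, the strongest group had the highest share in both replicates, the highest share upstream and the highest GC content, whereas the last 2 groups differed mainly in the first of these. From the strongest group to the weakest, the numbers in the strongest regions of both replicates were 157 of 157, 154 of 156, 114 of 156 and 27 of 157. Part of this fall is built in, because weak peaks rank near the limit of 2095. The shares upstream were 92.4%, 81.4%, 72.4% and 76.4%, and the median positions −215, −180.5, −143.5 and −136 bp. Median GC content in the 100 bp at the summit was 52%, 48%, 45% and 46%. A small RNA gene start lay in reach of 6.37%, 8.97%, 12.2% and 9.55%. Members were 24 of the 50 strongest thresholded peaks (48%, 95% interval 33.7 to 62.6%), 11 of the next 50, and 159 of the 595 ranked last (26.7%). The high share at the top was not particular to members. Peaks with several starts in reach were 13 of the same 50, 10 of the next 50 and 44 of the last 595, against 220 of all 2095. Among the last members in the order of signal were *ire-1*, a sensor of the unfolded protein response, *cpsf-1*, an RNA cleavage factor, and *aqp-9*, an aquaporin.

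**Figure D4:**
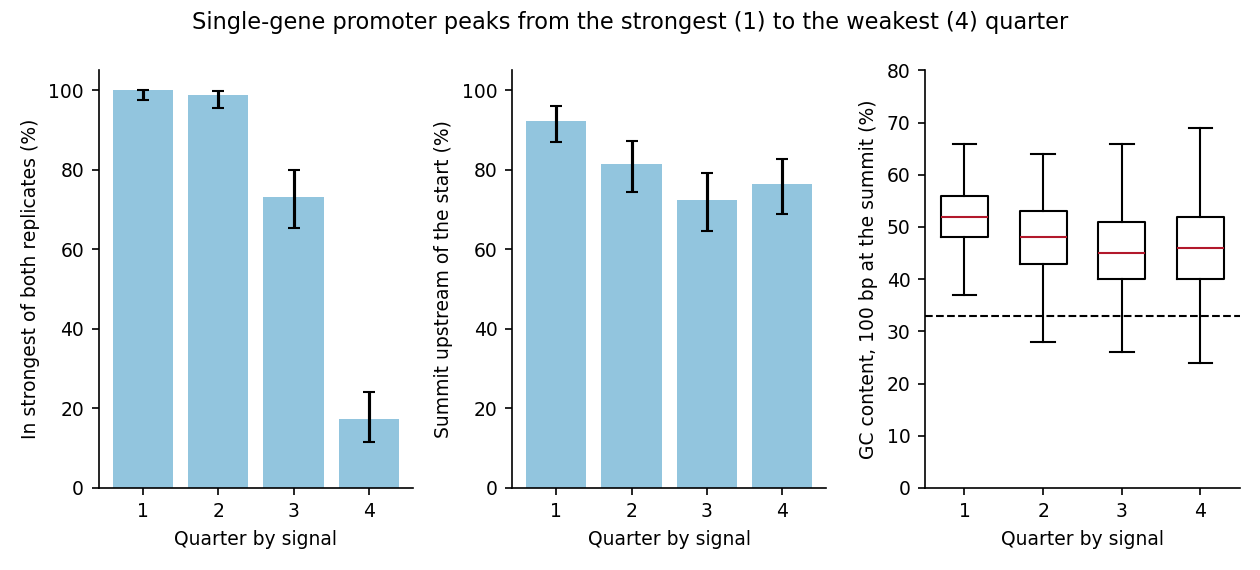
The 626 members in 4 groups from the strongest (1) to the weakest (4) by signal, with the percent in the strongest regions of both replicates (left), the percent of summits upstream (middle), both with exact 95% intervals, and the GC content of 100 bp at the summit (right, boxes with quartiles, whiskers to the farthest value within 1.5 box lengths, dashed line at the median of all promoters, 33%). The left bars fall from 100% to 17.2%, and the strongest group has the highest share upstream (92.4%) and the highest median GC (52%).

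Genes with 2 member peaks mostly rested on 1 region each. At 14 of the 16 genes, the summits were at most 250 bp apart and lay on 1 replicate region in both replicates, so both peaks carry the same values. The strongest were *pro-1* (summits at −148 and −354 bp, 6.96 and 9.49), *kin-14* (18 and −182 bp, 6.45 and 8.66), *unc-85*, a histone chaperone gene (−477 and −274 bp, 7.25 and 6.16), *myrf-1*, a membrane-bound transcription factor (−290 and −490 bp, 5.73 and 7.16), and *lin-66* (−431 and −225 bp, 5.89 and 6.41). The autophagy gene *lgg-2* had separate regions, at −342 bp (6.91 and 6.88) and at 405 bp (5.04 and 6.25), and so had *F26F12.3* (−361 and 350 bp). The others with high signal were *F55H12.7*, *F54F2.6*, *kel-3* and *F47D12.9*. In all, 34 members shared a replicate region with another thresholded peak, among them *pro-1* and *kin-14*.

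Cytosolic ribosomal protein genes, listed by gene name, had 17 of 81 members (21%), against the 3.05% of all protein-coding genes. A further 29 had only a peak shared with another gene's start. The share of all protein-coding genes with only a shared peak was not computed. The 3.05% therefore does not apply to these 29 or to the shared-peak counts of the lists below. All 17 summits lay upstream, with a median of −301 bp, and all 17 peaks were in the strongest regions of both replicates. Their median relative signal was 5.58, against 3.00 over all member genes, and it reached from *rpl-3* down to *rpl-38* (2.49 and 2.80). After *rpl-3*, *rpl-35* and *rps-1* came *rpl-24.2* (7.14 and 8.38), *rpl-11.2* (6.93 and 8.17), *rpl-41.2* (6.98 and 7.83) and *rps-28* (6.72 and 7.71). Between 4 and 6 on average were *rpl-6*, *rps-24*, *rpl-7*, *rpl-14* and *rps-4*, and below 4 *rpl-29*, *rps-11*, *rpl-23*, *rpl-25.2* and *rpl-38*. None had a small RNA gene start within 500 bp. The count depends on the window, being 7 within 250 bp and 10 within 1000 bp, where other starts come into reach.

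Other genes of protein synthesis and folding were also members. Translation factors had 5 of 42 (11.9%), all upstream and all in both replicates' strongest regions, with *iff-2* first. The others were the eIF3 subunits *eif-3.C* (8.66 and 9.29), *eif-3.B* (3.37 and 4.38) and *eif-3.E* (2.93 and 3.51), and the elongation factor gene *eef-1A.2* (6.93 and 5.95). Chaperones and chaperonins had 6 of 64 (9.38%), again all upstream and all in both, with *crt-1*, the calreticulin gene (8.17 and 10.3), after *hsp-1*, *hsp-3* and *dnj-13*. The Rab and secretory pathway list had 7 of 70 (10%), among them the COPII coat gene *sec-24.1* (4.42 and 6.84), the COPII GTPase *sar-1* (4.14 and 4.81) and the translocon channel gene *sec-61.A* (4.19 and 4.56, 133 bp downstream). Ubiquitin conjugation and *cdc-48* had 11 of 71 (15.5%), with a list median of 2.47, below the 3.00 over all member genes. After *cdc-48.1* came *ubc-3* (3.99 and 5.46), *ubc-25* (2.70 and 3.08) and *ubl-1*, whose window also holds a snoRNA start (2.86 and 3.04). Proteasome subunits had 2 of 33, *rpn-11* (3.38 and 5.20) and *rpt-6* (2.55 and 2.56), with 8 more at shared peaks. Mitochondrial ribosomal proteins had 3 of 70 (*mrpl-28* at 4.96 and 5.54, *mrpl-55* at 4.05 and 2.86, *mrpl-41* at 2.2 and 1.8), and aminoacyl-tRNA synthetases 1 of 32 (*mars-1*, 2.37 and 1.97), both near the share of all genes with a single-gene peak. Genes with only a shared peak numbered 5 and 2 in these lists. They numbered 5 among translation factors, 12 among chaperones, 7 in the secretory list and 2 in the ubiquitin list.

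Genes of energy metabolism and of the mitochondrion were above the share of all genes. Oxidative phosphorylation had 8 of 46 (17.4%), 7 of them upstream, with *cyc-1*, of cytochrome bc1 (4.50 and 5.47), and *ucr-2.2*, of the same complex (4.05 and 2.97), after *cox-5A* and *cox-5B*. Glycolysis and the citric acid cycle had 7 of 41 (17.1%), with a median of 2.44. They were led by *idhg-1*, an isocitrate dehydrogenase subunit (4.37 and 4.72), the citrate synthase gene *cts-1* (3.70 and 5.61), *dld-1* (3.94 and 3.43) and the fumarase gene *fum-1* (2.84 and 2.04). Mitochondrial import and carriers had 3 of 27, namely *ant-1.1*, an adenine nucleotide carrier (8.64 and 8.70), *tomm-20*, an import receptor (5.99 and 6.10), and *timm-17B.1* (2.43 and 1.49).

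For single-gene peaks, most lists of nuclear and chromatin genes lay above the 3.05% of all genes, and the histone genes below it. Histone acetylation and deacetylation had 6 of 33 (18.2%), with 4 of them upstream and 4 in the strongest regions of both replicates. They were the acetyltransferase genes *hat-1* (6.97 and 6.45) and *pcaf-1* (1.91 and 2.82) and *epc-1*, the worm Enhancer of Polycomb (6.92 and 5.70). The others were the bromodomain gene *bet-2* (6.64 and 6.35), the deacetylase *sir-2.1* (3.49 and 2.66) and *lsy-12*, the gene that the transgene carries. Only a shared peak was present at 4 further genes of this list. The thresholded peak of *bet-2* had an authors' signal value of only 179.1, below the median of all members, so its relative signal is that of stronger replicate regions that overlap the peak. Histone methylation and remodelling had 5 of 70 (7.14%), with *set-4* (4.22 and 5.69), *ruvb-2* (4.05 and 4.1), *swsn-3* of SWI/SNF (3.75 and 3.46) and *met-1* (3.61 and 3.34) first. The histone genes had 2 of 81 (2.47%), *his-37* and the linker histone gene *his-24* (3.54 and 4.22). Another 11 histone genes had only a peak shared with another gene's start, so the low share holds for single-gene peaks only. Splicing factors had 7 of 64 (10.9%), all in both replicates' strongest regions, with *snr-4* (6.90 and 5.95, beside an snRNA start), *prp-8* (4.45 and 5.18) and *snrp-3* (3.02 and 3.25) after *mog-4*. Only a shared peak was present at 9 further splicing factor genes. RNA polymerases and general transcription had 5 of 75 (6.67%), with *rpb-11* (5.02 and 4.1), *taf-4* (5.33 and 4.00), *rpac-19* (4.67 and 3.71) and *mdt-22* (3.10 and 3.01) first. Nuclear pore and transport had 3 of 40, *imb-3* (6.78 and 6.08), *npp-8* (5.34 and 4.37) and *ima-2* (2.78 and 2.90).

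The peak at *lsy-12* itself needs care, since the transgene carries this gene. Its summit lay 103 bp downstream of the start (chrV:9859655-9860064), and the value was 2.75 in replicate 3 and 1.06 in replicate 4, near the median candidate region in the latter. Within 40 kb there were 3 other thresholded peaks, upstream of its start. The values were 4.01 and 4.55 at −543 bp, 2.4 and 2.33 at −2894 bp, and 4.5 and 1.97 at −5306 bp. None of these 3 had a protein-coding start in reach, so *lsy-12* was the only member there. The part of extra transgene copies in these values was not tested. *unc-119*, which is mutated in the strain, had no member peak.

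Lists of tissue genes and developmental regulators lay on both sides of the 3.05% of all genes. Synaptic and pan-neuronal genes had 6 of 30 (20%), all in both replicates' strongest regions but with a median of 2.66, led by *unc-16*, a scaffold of axonal transport (4.09 and 5.79), *unc-76* (3.16 and 2.64), *unc-14* (2.29 and 3.33) and *egl-21*, a neuropeptide processing enzyme (2.65 and 2.38). Heterochronic and molting regulators had 6 of 61 (9.84%) with a median of 3.03, among them *lin-66*, the RNA-binding protein gene *lin-28* (4.31 and 4.25), the astacin protease gene *nas-10* (2.98 and 3.72, with a tRNA start nearby) and *lin-14* (2.29 and 3.14). Body wall muscle had 2 of 45 (4.44%), *act-4* and *unc-112* (2.11 and 1.98), neither in both replicates' strongest regions, and the intestine list 1 of 42 (2.38%), *erm-1* (3.00 and 2.19). Nuclear hormone receptors had 6 of 274 (2.19%, below the share of all genes), all upstream, with *nhr-49*, a regulator of fat metabolism (4.37 and 4.21), *nhr-35* (2.95 and 4.02), *nhr-105* (2.42 and 2.65) and *nhr-32* (2.79 and 1.64) first. Homeobox factors had 1 of 85 (1.18%), *ceh-39* (3.16 and 3.33).

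Several large gene families were below the 3.05% of all genes. Chemoreceptors had 1 of 1310, *srh-269* (3.02 and 3.96), collagens 1 of 180, *col-85* (2.42 and 2.16), and C-type lectins 1 of 240, *clec-126* (5.08 and 2.86). In each of these 3 cases a tRNA gene start lay within 500 bp of the same summit, and its part in the peak was not tested. F-box, MATH and BTB proteins had 2 of 445, *fbxb-72* (2.17 and 3.82) and *sdz-19* (2.53 and 1.99), and cytochrome P450 and UDP-glucuronosyltransferases 1 of 141, *cyp-13A2* (2.62 and 2.67). Of the 28 lists, which were chosen with earlier results of these data known, 19 had a share above 3.05%. Some of these 19 rested on few genes, such as aminoacyl-tRNA synthetases (1 of 32) and body wall muscle (2 of 45). The lists together held 125 of the 610 member genes (20.5%).

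**Figure D5:**
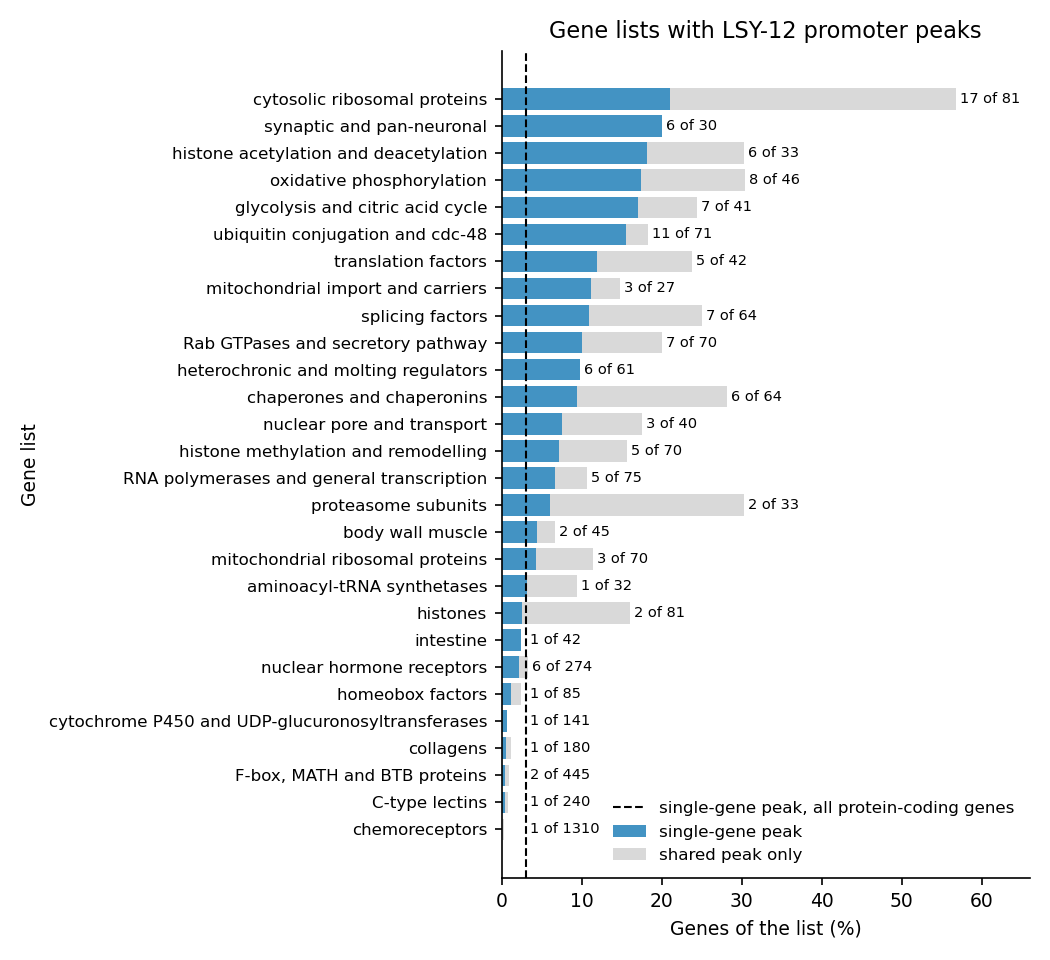
Percent of genes of each of the 28 lists (y axis) with a single-gene promoter peak (blue) or with only a peak shared with another gene's start (grey), with the count of blue genes beside each bar and a dashed line at 3.05%, the share of all protein-coding genes with a single-gene peak. The dashed line applies to the blue part of each bar only. Ribosomal proteins have the longest bar (17 of 81 blue), and chemoreceptors (1 of 1310) the shortest.

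Of the 610 member genes, 198 (32.5%, 95% interval 28.7 to 36.3%) are known only by a sequence name, against 45.4% of all protein-coding genes. The share of genes that were members was 3.96% on chromosome I, 3.07% on II, 4.13% on III, 2.62% on IV, 1.90% on V and 3.66% on X. Median relative signal was 3.19 and 3.67 on III, and 2.77 and 2.76 on V, the highest and lowest of the chromosomes in replicate 4. On X, members were 100 of the thresholded peaks there (24.2%), the lowest share of the 6 chromosomes, and on I they were 33.5%, the highest.

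A start of a tRNA, snoRNA or snRNA gene lay within 500 bp of 58 summits (9.27%, 95% interval 7.11 to 11.8%), where the protein-coding gene is thus not the only gene in reach. There were 34 with a tRNA, 21 with a snoRNA and 4 with an snRNA gene, and none with a miRNA or rRNA gene, where 1 summit can have more than 1 kind. The share was 20.9% at peaks with no protein-coding start in reach and 5.45% at those with several.

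Sequence at the summits was rich in GC and poor in runs of A. Median GC in 100 bp was 48% (quartiles 42 and 53%), against 33% in windows of the same length centred 175 bp before the start of every protein-coding gene. On either strand, CTGCGT was present in 96 of 626 member windows (15.3%) against 3.04% of those promoters, GAGAGA in 20.8% against 7.95%, GGGCGG in 6.07% against 2.35% and CACGTG in 4.79% against 1.62%. Less frequent at members were AAAAAA (18.2% against 45.3%), TATAAA (3.35% against 12.8%), TTTCAG (7.67% against 15.9%) and TGATAA (4.15% against 11.5%). Among the 115 hexamers present in at least 10% of member windows, the highest ratios were those of CGCGTC (11.8% against 1.54%), then GCGCCA (14.2% against 1.95%) and AACGCG (15.2% against 2.35%), and the lowest was that of TAAAAA (10.7% against 34.3%).

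Part of these differences moved with GC content. In windows with 42 to 53% GC, 333 at members and 3353 at promoters, CTGCGT was present in 14.7% against 8.29%, GAGAGA in 21.6% against 16.1% and CACGTG in 5.11% against 2.54%, whereas GGGCGG turned to 3.90% against 6.83%. The deficits shrank as well. For AAAAAA the shares were then 17.7% against 21.7%, for TATAAA they were 2.4% against 4.71%, for TTTCAG they were 6.31% against 8.80%, for TGATAA they were 3.30% against 5.99%, and for TAAAAA they were 8.41% against 10.8%. Of the hexamers picked by ratio, GCGCCA had the largest difference, with 18% against 4.89%, beside AACGCG with 17.4% against 4.95% and CGCGTC with 11.1% against 3.94%. CTGCGT was present in 21.2% of the strongest 156 members and 13.5% of the weakest 156, and GAGAGA in 19.9% of both. A match is a description of letters and not a binding site.

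Windows of 4 strong members that hold GCGCCA show where it lies. They are printed on the strand of the gene, with the same marks.
ZC506.1, chrX:9958726-9958825, plus strand: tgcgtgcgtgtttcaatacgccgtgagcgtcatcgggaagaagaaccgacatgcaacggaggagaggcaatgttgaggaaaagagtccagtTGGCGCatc
ztf-7, chrV:9789952-9790051, minus strand: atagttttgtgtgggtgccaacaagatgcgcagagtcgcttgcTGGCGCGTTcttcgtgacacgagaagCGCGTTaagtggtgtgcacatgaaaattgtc
eelo-2, chrIV:17249846-17249945, plus strand: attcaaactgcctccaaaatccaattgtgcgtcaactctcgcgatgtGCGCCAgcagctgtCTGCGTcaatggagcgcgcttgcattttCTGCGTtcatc
pro-1, chrII:10542095-10542194, minus strand: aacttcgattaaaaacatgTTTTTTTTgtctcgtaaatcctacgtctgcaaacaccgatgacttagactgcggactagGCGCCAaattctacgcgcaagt
Relative signal was 8.79 and 10.3 at *ZC506.1* (summit at −184 bp), 8.90 and 9.59 at *ztf-7*, a zinc finger gene (−294 bp), 7.91 and 9.62 at *eelo-2* (−235 bp), and 6.96 and 9.49 at *pro-1* (−148 bp). The window of *ztf-7* also held AACGCG, that of *eelo-2* CTGCGT and that of *pro-1* a run matching AAAAAA.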

How the data were processed

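The deposited files are peak lists in narrowPeak form without a header, on ce11 and ce10; only the ce11 lists were used. The authors listed 30000 candidate regions for each replicate, called with a control alignment, and derived the thresholded list from them and a pooled list through the irreproducible discovery rate, per the deposited text files. Neither an aligner nor a peak caller is named in those sources. The deposited signal values have no stated scale and were compared only inside 1 list. A stricter threshold used the deposited −log10 q-value, and the deposited offset of the summit, another column, set the summit. The lists hold no read counts, the depth is unknown, and only the 2 replicates show the precision; the 95% intervals (exact Clopper-Pearson) cover counting error only. The control library was not analysed here.

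Starts came from Ensembl release 115, with 19973 protein-coding genes on the nuclear chromosomes. Positions count from 1. Overlap required at least 1 bp. The assignment of summits to starts was tested on simulated data. Python 3.11.15, pandas 2.3.3 and SciPy 1.17.1 were used.

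The members and the 28 gene lists were chosen with earlier results of these data known. The lists were made by gene name or class prefix. They can thus miss genes of the same role under other names, or hold genes of another role. Genes named were those at the 25 strongest members, the 4 strongest of each list, up to 10 with 2 peaks, the 5 largest replicate differences each way, the 3 nearest either side of the window limit, the farthest downstream, *lsy-12* and *unc-119*. Other genes were named after their values were seen. These were *lsy-2*, *R119.3*, *ire-1*, *cpsf-1*, *aqp-9*, *F26F12.3*, *unc-58*, *Y56A3A.7* and the genes of the GCGCCA windows. The remaining ribosomal protein, translation factor and acetylation genes were also named after their values were seen. Alternatives were other windows, all transcript starts, stricter thresholds, other overlap rules, region midpoints and each replicate alone.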

Additional observations from a re-analysis of the deposited data

How the results depend on the processing

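Of 73 values under other settings, 49 stayed within 1.5 times the count, within the interval or within the replicate SD, and 24 did not; the cause was not tested where the setting itself does not change which peaks count. With a window of 250 bp the median position was −124 bp and 7 ribosomal protein genes had a peak; with 1000 bp these were −206 bp and 10, with 75.3% upstream. With 1000 bp upstream and 100 bp downstream, 93.9% were upstream and the median was −281 bp. With a q-value of at most 0.01, 391 peaks at 385 genes remained, with 84.1% upstream, a median of −190 bp, 97.4% in both replicates and a relative signal of 3.93. Above the median signal, 336 peaks at 333 genes remained, with 86% upstream, a median of −195 bp, 98.8% in both and a relative signal of 4.2. The share in both was 67.9% with summits within 100 bp, 42% over the 1000 strongest regions and 96.5% over the 5000 strongest.

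With one replicate left out, so that the strongest regions of the other stood in for the thresholded list, members numbered 597 to 621 at 580 to 606 genes, 76.9 to 80.4% were upstream, the median position was −170 to −159 bp, the relative signal 2.97 to 3.13, and ribosomal protein genes 18 to 20. The share in both replicates has no value there. The excess of GGGCGG over promoters turned from 3.72 to −2.93 percentage points in windows of 42 to 53% GC, a restriction chosen after the data were seen. No paired analysis was possible because there is only 1 group.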
